A study of Mus musculus with 14 samples.

Results

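*Tet1/2* DKO mouse ES cells were compared with wild-type ES cells after 72 h of mTORi. The comparison holds 4 of the 14 RNA-seq libraries of the series: those whose labels give E14 TET1/2 DKO at 72 h (2 replicates) and E14 wild-type at 72 h (2 replicates). E14 is a feeder-free mouse ES cell line, grown here on gelatin in serum with LIF. All 4 cultures received the mTOR inhibitor INK128 (Ink128 in the labels) for the same 72 h, so neither group was untreated, and the libraries were made from total RNA with ERCC RNA added and ribosomal RNA removed. The study made the DKO line from wild-type E14 cells with Cas9 and guides to exons of both genes, from sorted single cells that were screened by PCR; whether the replicates came from 1 clone is not given in the sources used here, and a feature of the line cannot be told apart from an effect of the deletions. DKO stands below for this label. The same genotypes at 0 h (no inhibitor) and 24 h of mTORi, 2 libraries in each group, share no library with the 72 h comparison and are used beside it; wild-type cells at 144 h enter only the filter on low values and the estimate of the spread.

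TET proteins oxidize 5-methylcytosine to 5-hydroxymethylcytosine and further forms, the route by which methylated CG sites are actively demethylated. ES cells express mainly *Tet1* and *Tet2*. Inhibition of mTOR slows growth and translation and puts ES cells into a reversible dormant state like that of the diapaused blastocyst. Promoters of many germline genes are silenced by DNA methylation in somatic cells, which is why these genes are often read out where methylation is altered.

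The values are TPM, transcript abundances scaled to a total of 1000000 in each library. They keep no read counts, so the depth is unknown and no counting error is given. The 10 genes of highest TPM took 22.3% and 26.5% of the TPM in the wild-type libraries and 21.97% and 18.8% in the DKO libraries at 72 h. All 10 ES cell markers examined, among them *Pou5f1*, *Sox2* and *Nanog*, stood between 125 and 3012 TPM in every library at 72 h, and their sum was 6692 and 6645 TPM in wild type and 6966 and 6489 TPM in DKO. Of 10 fibroblast markers, 7 were under 1 TPM in all 4 libraries, with *Fap* and *Lum* listed at 0, and their sum ran from 26.7 to 31.0 TPM.

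*Tet2* (chr3:133463679-133545139, mm10, minus strand), which the label says was disrupted, was at 114.1 and 114.3 TPM in the wild-type libraries and at 21.7 and 18.7 TPM in the DKO libraries. The groups did not overlap, and the wild-type mean was 5.66 times the DKO mean (log2 fold change −2.45 ± 0.13 (SE), limma adjusted p = 3.5e-05). *Tet1* (chr10:62804570-62908996, minus strand) was at 312.6 and 288.8 TPM in wild type and at 237.7 and 248.2 TPM in DKO. The DKO libraries lay below the wild-type libraries, at 0.808 of their mean, and the difference did not pass the threshold (log2 fold change −0.31 ± 0.09, limma adjusted p = 0.068). Scaling by the ERCC spike-ins, which moved the median of all genes upward, gave 0.11, and relative to the median of all genes the value was −0.41 with TPM as deposited and −0.39 with the spike-ins. At 72 h *Tet1* passed after median-centring (limma adjusted p = 0.049) and with a replicate block that crosses the DKO numbers (limma adjusted p = 0.041). It passed under none of the other alternatives at 72 h. At 24 h *Tet1* was called lower in DKO (−0.51, limma adjusted p = 0.023). A TPM for the whole gene does not show which exons were read, so neither level checks a deletion by itself. The study describes deletion of both entire genes. *Tet2* RNA was far lower in DKO, while *Tet1* RNA stood at 0.808 of the wild-type mean, and why was not tested. The study checked both proteins by western blot, which is not analysed here. *Tet3*, the family member without a guide, was at 8.25 and 8.36 TPM in wild type and 11.3 and 10.9 TPM in DKO (log2 fold change 0.38 ± 0.12, limma adjusted p = 0.099).

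Of the 15878 genes that averaged 1 TPM or more over all libraries, 828 (5.21%) differed between DKO and wild type at 72 h: 658 were higher in DKO (4.14%) and 170 lower (1.07%), by limma on log2(TPM + 1) with Benjamini-Hochberg adjusted p under 0.05. In each of the 828 genes both DKO libraries lay on the same side of both wild-type libraries, an order that 40.3% of all genes tested showed upward and 15.5% downward. Most differences were small. Of the genes called higher, 94 had a log2 fold change of at least 1, as had 48 of those called lower in size, and the medians were 0.60 and −0.72. Protein-coding genes made up 627 of the higher and 142 of the lower calls.

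The counts depended on the scaling and on each library. Over all genes the log2 fold change had a median of 0.11 with TPM as deposited, where 66.3% of genes lay above 0, and of 0.50 with the spike-in factors, whose derivation is not given in the sources used here and which differ between the DKO replicates at 72 h. Each factor equals 38 divided by a whole or half-integer number, to within 0.00088 of that number, so they move in coarse steps. With these factors 77 genes (0.485%) were called higher and 6 (0.0378%) lower, and 152 of the 170 genes lower with TPM as deposited stayed below 0 while the rest turned above it; after centring each library on its median the counts were 213 (1.34%) and 243 (1.53%). Without wild-type replicate 1 the calls fell to 42 higher and 14 lower, without wild-type replicate 2 to 66 and 25, without DKO replicate 1 to 32 and 9, and without DKO replicate 2 to 29 and 17. In bulk RNA, a gene active in fewer cells and a gene with less RNA per cell cannot be told apart.

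The named rises hold germline genes, an inhibitor of Nodal and genes of varied function. *Stra8*, the retinoic acid-responsive gene that licenses meiosis, was at 31.2 and 50.1 TPM in wild type and 215.9 and 197.5 TPM in DKO. *Lefty2*, a secreted inhibitor of Nodal, was at 39.3 and 36.0 TPM in wild type and 143.8 and 142.1 TPM in DKO. In both genes both DKO libraries stood well above both wild-type libraries, at 5.08 and 3.80 times the wild-type mean. The log2 fold changes were 2.35 ± 0.52 for *Stra8* and 1.90 ± 0.15 for *Lefty2*, with limma adjusted p = 0.035 and 0.00084.

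Among the others, *Atp1b2*, which encodes a beta subunit of the sodium-potassium pump, was at 21.1 and 21.5 TPM in wild type and 59.0 and 60.1 TPM in DKO (log2 fold change 1.44 ± 0.11, limma adjusted p = 0.00084). *Rhox10*, an X-linked homeobox gene of the reproductive cluster, was at 4.63 and 4.80 TPM in wild type and 15.0 and 14.3 TPM in DKO (1.45 ± 0.13, limma adjusted p = 0.0012). These replicates lay close together and far from the other genotype. *Scml2*, a germline Polycomb-associated gene, went from 4.67 and 7.53 TPM to 15.5 and 21.7 TPM. The aldo-keto reductase gene *Akr1cl* was higher by 1.80 on the log2 scale and the lens crystallin gene *Cryge* by 1.49. The retinol carrier gene *Rbp4* was higher by 1.42, the homeobox gene *Prrx2* by 1.34 and the actin-binding gene *Aif1l* by 1.31. All of these rose from wild-type means under 3 TPM and were called in limma with adjusted p between 0.0058 and 0.039. *Akr1cl* (chr1:65012689-65032759), *Cryge* (chr1:65048554-65051149) and *Idh1* (chr1:65158616-65186500, described below), all called higher, lie close together.

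**Figure D1:**
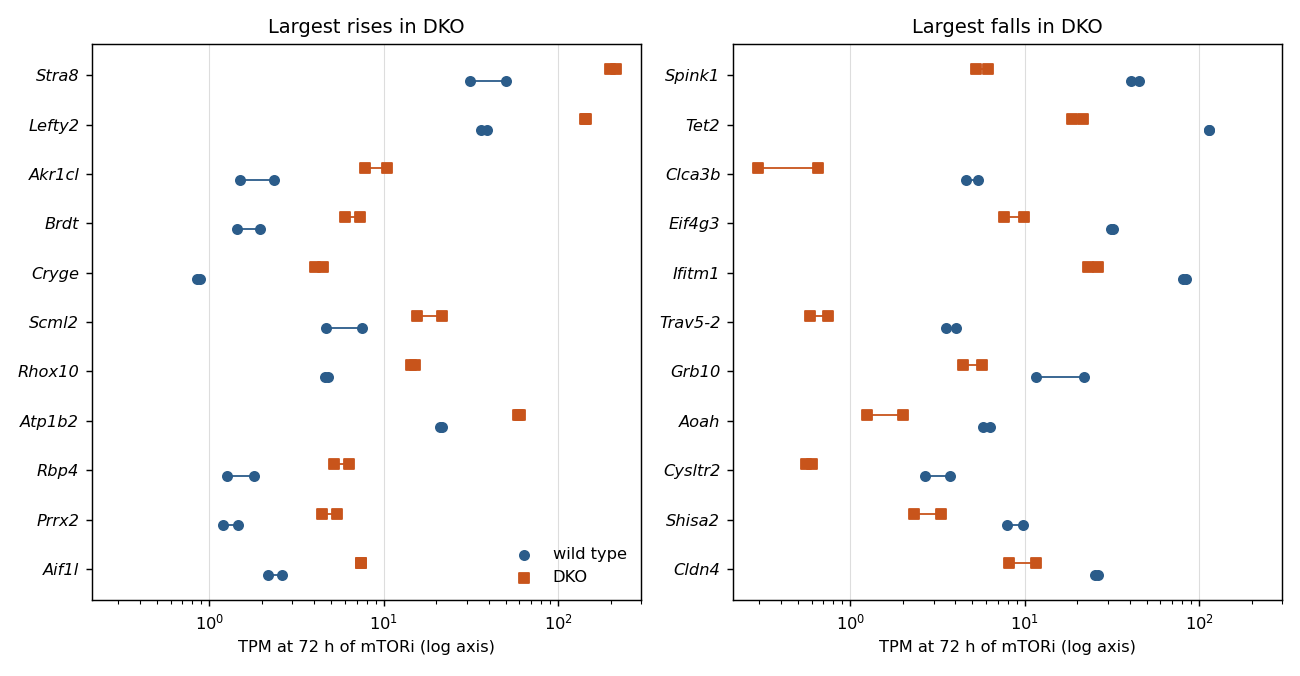
TPM on a log axis of 11 of the largest rises (left) and 11 of the largest falls (right) at 72 h of mTORi, with circles for the 2 wild-type libraries, squares for the 2 DKO libraries and a line joining the libraries of a genotype. The genotypes do not overlap in any of the 22 genes, as the rule for naming them required, and *Lefty2*, *Atp1b2*, *Rhox10*, *Tet2* and *Ifitm1* show replicates that nearly coincide.

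The largest called fall was in *Spink1*, a secreted serine protease inhibitor, at 40.6 and 45.0 TPM in wild type and 5.22 and 6.18 TPM in DKO (log2 fold change −2.71 ± 0.22, limma adjusted p = 0.00084). *Eif4g3*, a scaffold of translation initiation, was at 31.9 and 31.1 TPM in wild type and 9.84 and 7.65 TPM in DKO (−1.75 ± 0.17, limma adjusted p = 0.002). Neither gene overlapped between the genotypes. *Ifitm1*, an interferon-induced membrane protein that is also made in germ cells, was at 80.9 and 83.5 TPM in wild type and 26.4 and 22.9 TPM in DKO (−1.70 ± 0.21, limma adjusted p = 0.0056). *Grb10*, an imprinted inhibitor of insulin receptor signalling, was at 21.995 and 11.7 TPM in wild type and 4.402 and 5.66 TPM in DKO (−1.51 ± 0.27, limma adjusted p = 0.019). The wild-type replicates of *Grb10* differed most among these genes, and both still exceeded the DKO libraries.

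*Clca3b*, a chloride channel accessory gene, was at 5.39 and 4.59 TPM in wild type and 0.30 and 0.65 TPM in DKO, a log2 fold change of −2.03 ± 0.32 (limma adjusted p = 0.013). The tight junction gene *Cldn4* was at 25.3 and 26.4 TPM in wild type and 8.08 and 11.6 TPM in DKO (−1.33 ± 0.28, limma adjusted p = 0.029). *Trav5-2* (annotated as a pseudogene of a T cell receptor segment) and *Aoah* (an enzyme that inactivates lipopolysaccharide) fell, with log2 fold changes of −1.53 and −1.44. *Cysltr2* (a leukotriene receptor) and *Shisa2* (an inhibitor of Wnt and FGF receptor maturation) fell, with −1.3999 and −1.37. All of these fell from wild-type means under 10 TPM, and none was called with spike-in scaling. They were called under 5, 5, 2 and 3 of the 11 alternatives, in that order.

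Few of these calls held without each library in turn. Of the 828 genes, 24 were called in all 4 fits that left out 1 library, 19 of them higher and 5 lower, and *Tet2*, *Spink1*, *Lefty2* and *Atp1b2* were called under all 11 alternatives. Several of the 24 lie outside the rule for named genes and were picked after their values were seen. *Nsd2*, a histone H3K36 methyltransferase, was at 11.9 and 12.3 TPM in wild type and 29.96 and 28.5 TPM in DKO (log2 fold change 1.20 ± 0.13). *Inpp5d*, a phosphoinositide phosphatase, was at 22.8 and 22.1 TPM in wild type and 45.6 and 43.8 TPM in DKO (0.96 ± 0.11). *Kdm4b*, a histone H3K9 demethylase, was at 16.8 and 17.0 TPM in wild type and 8.62 and 8.65 TPM in DKO (−0.89 ± 0.09). In these 3 genes the replicates of a genotype lay within 2 TPM of each other, and limma gave adjusted p of 0.0035 and 0.0036.

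Germline genes repressed by DNA methylation were the list with the most calls. Of its 45 genes, 41 passed the filter on low values, 12 rose (29.3%, against 4.14% of all genes) and none fell. The list median was 0.55 against 0.11 for all genes, and both DKO libraries lay above both wild-type libraries in 29 members (70.7%, against 40.3%). Besides *Stra8*, the bromodomain gene *Brdt* was at 1.45 and 1.96 TPM in wild type and 7.33 and 5.99 TPM in DKO (log2 fold change 1.503 ± 0.19, limma adjusted p = 0.0056). *Mov10l1*, a helicase that starts piRNA production, was at 14.7 and 14.1 TPM in wild type and 30.5 and 31.3 TPM in DKO (1.05 ± 0.15, limma adjusted p = 0.0086). *Ddx4*, the germ cell RNA helicase Vasa, was at 14.3 and 14.7 TPM in wild type and 25.2 and 26.3 TPM in DKO (0.79 ± 0.11, limma adjusted p = 0.0076). These 3 genes showed replicates that were tight relative to the difference.

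*Ddx4* and the other calls of this list that follow, except *Tdrkh* and *Meioc*, lie outside the rule for named genes and were picked after their values were seen. These calls were *Tdrkh*, *Piwil2*, *Fkbp6* and *Gtsf1* of the piRNA pathway at 1.24, 0.89, 0.57 and 0.54 on the log2 scale, *Meioc*, *Stag3* and *Dmc1* of meiosis at 1.08, 0.57 and 0.56, and the germ cell TFIID subunit gene *Taf7l* at 0.89. *Tdrkh* was at 3.48 and 2.26 TPM in wild type and 8.24 and 7.76 TPM in DKO, and *Meioc* was at 6.70 and 9.70 TPM in wild type and 19.9 and 16.6 TPM in DKO. The list is not uniform: 6 members had log2 fold changes below 0, down to −0.24, and none of these passed the test. With spike-in scaling, where the median of all genes was 0.50, all 41 members lay above 0 and 7 were called, against 0.485% of all genes called higher. After median-centring 33 lay above 0 and 5 were called, against 1.34% of all genes called higher. Minus the median of all genes, the list median was 0.46 and 0.44 with these 2 scalings and 0.44 with TPM as deposited. Without 1 library, 0 members (wild-type replicate 1 or DKO replicate 1), 2 (wild-type replicate 2) or 1 (DKO replicate 2) were called, while the list median stayed between 0.43 and 0.67. With a replicate block 6 members were called, with the DKO numbers crossed in that block 19, and with the 4 libraries at 72 h alone 0. *Stra8* did not pass with the block (limma adjusted p = 0.056) or without any 1 library (0.097 to 0.18).

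**Figure D2:**
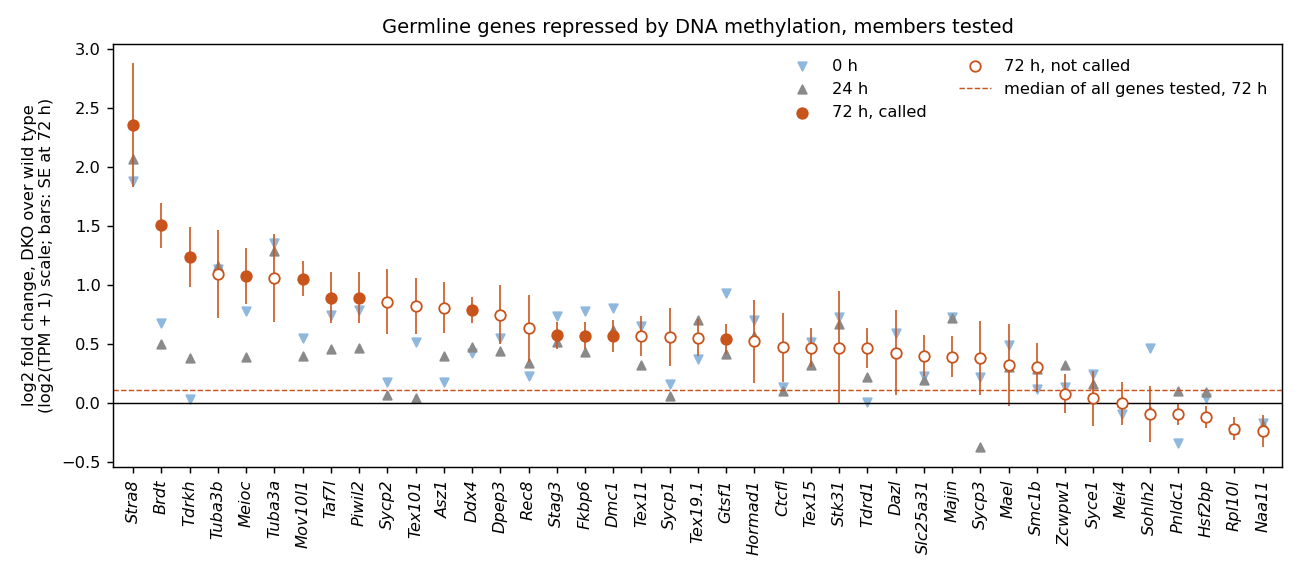
log2 fold change of DKO over wild type for the 41 germline list members tested, ordered by the value at 72 h, with circles for 72 h (filled where called, bars for the SE), down-pointing triangles for 0 h and up-pointing triangles for 24 h. The 12 called genes lie at or above 0.54 at 72 h, and 34 members stand above 0 at all 3 times.

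Promoter sequences of the 3 called germline members with the largest difference, and of the called falls *Tet2* and *Clca3b*, are given so that their CG content can be seen beside the expression values. Each runs 5′ to 3′ from 250 bases before to 50 bases after the RefSeq transcription start (GRCm38.p6), with CG dinucleotides, the sites of methylation, in capitals. *Stra8* is at chr6:34920698-34920997 (plus strand), *Brdt* at chr5:107330944-107331243 (plus), *Tdrkh* at chr3:94412994-94413293 (plus), *Tet2* at chr3:133544341-133544640 (minus) and *Clca3b* at chr3:144849253-144849552 (minus). The RefSeq start of *Stra8* lies 785 bases, and that of *Tet2* 749 bases, from the gene start in the files.
Stra8: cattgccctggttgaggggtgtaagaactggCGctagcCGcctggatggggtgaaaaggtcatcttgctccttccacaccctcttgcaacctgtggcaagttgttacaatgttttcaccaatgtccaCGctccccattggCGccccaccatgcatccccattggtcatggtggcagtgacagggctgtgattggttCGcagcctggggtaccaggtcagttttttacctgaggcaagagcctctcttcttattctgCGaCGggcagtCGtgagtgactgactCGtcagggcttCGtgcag
Brdt: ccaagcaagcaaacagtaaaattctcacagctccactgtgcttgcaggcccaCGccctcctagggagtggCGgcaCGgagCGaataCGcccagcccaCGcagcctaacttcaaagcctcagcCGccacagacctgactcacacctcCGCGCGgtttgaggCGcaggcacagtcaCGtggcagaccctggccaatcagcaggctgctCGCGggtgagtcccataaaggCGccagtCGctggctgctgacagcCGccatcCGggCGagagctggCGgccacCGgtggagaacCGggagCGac
Tdrkh: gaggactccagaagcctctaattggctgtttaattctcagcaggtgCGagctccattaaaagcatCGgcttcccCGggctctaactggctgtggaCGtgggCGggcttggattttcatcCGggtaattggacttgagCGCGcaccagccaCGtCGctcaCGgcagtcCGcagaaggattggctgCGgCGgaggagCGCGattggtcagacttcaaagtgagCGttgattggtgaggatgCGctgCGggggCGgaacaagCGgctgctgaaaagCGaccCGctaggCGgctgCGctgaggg
Tet2: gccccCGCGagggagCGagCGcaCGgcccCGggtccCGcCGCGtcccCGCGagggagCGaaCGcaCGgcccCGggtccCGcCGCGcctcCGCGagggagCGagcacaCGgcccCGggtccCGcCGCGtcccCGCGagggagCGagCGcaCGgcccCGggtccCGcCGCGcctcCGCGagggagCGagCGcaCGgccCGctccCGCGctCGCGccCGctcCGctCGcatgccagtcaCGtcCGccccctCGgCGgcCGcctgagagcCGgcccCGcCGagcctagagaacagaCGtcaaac
Clca3b: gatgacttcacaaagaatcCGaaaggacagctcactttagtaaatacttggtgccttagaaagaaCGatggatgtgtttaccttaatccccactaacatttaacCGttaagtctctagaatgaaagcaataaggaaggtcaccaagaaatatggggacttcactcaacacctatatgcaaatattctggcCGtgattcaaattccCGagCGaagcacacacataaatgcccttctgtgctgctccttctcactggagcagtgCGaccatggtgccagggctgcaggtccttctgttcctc

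The 3 germline promoters hold 10, 23 and 25 CG dinucleotides, that of *Tet2* 57 and that of *Clca3b* 7. RefSeq promoters were matched for 496 of the higher genes, 119 of the lower genes and 10050 of all genes tested, with medians of 23, 17 and 21 CG dinucleotides per 300 bases. The E-box CACGTG stood on either strand in 10.7% of the higher, 11.8% of the lower and 10.6% of all promoters, and among the printed ones in that of *Brdt* only. In the germline list it was in 6 of 11 promoters of called members and in 7 of 24 of those not called, while the next motif, GCGGGAA, was in 3 and 9 of them and GCCATNTT in 2 and 3. The E2F-type motif GCGGGAA was in 10.1% of the higher, 3.36% of the lower and 9.05% of all promoters, and the YY1-type motif GCCATNTT in 3.63%, 7.56% and 9.21%. These are matches of letters in a fixed window and were not tested.

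In the Nodal and BMP list, 2 of 12 members tested rose (16.7%, against 4.14% of all genes), *Lefty2* among them, and the other 10 did not pass. Both calls held without each library in turn, and the list median was 0.02. In the list of FGF and ERK feedback genes, 3 of 14 members fell (21.4%, against 1.07% of all genes) and none rose: *Fgf4*, the main FGF ligand of ES cells, its feedback inhibitor *Spry1* and the ETS factor gene *Etv5*. *Fgf4* was at 71.3 and 85.5 TPM in wild type and 44.4 and 40.8 TPM in DKO (log2 fold change −0.86 ± 0.12, limma adjusted p = 0.0088). *Spry1* was at 20.1 and 18.98 TPM in wild type and 11.8 and 12.4 TPM in DKO, and *Etv5* was at 221.5 and 208.8 TPM in wild type and 157.9 and 154.7 TPM in DKO. The list median was −0.01, and 7 members lay above 0 and 7 below. Without wild-type replicate 1 a single one of the 14 was called lower and 1 higher, and none was called without any of the other 3 libraries. With spike-in scaling, where the median of all genes was 0.50, no member was called, 10 of 14 lay above 0 and *Etv5* stood at −0.05.

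Of 29 core and naive pluripotency members tested, 2 fell (6.90%, against 1.07% of all genes) and none rose, and neither call held without any 1 of the 4 libraries. The list median was −0.06, or 0.35 under spike-in scaling, where that of all genes was 0.50. *Nr0b1*, a naive-state corepressor, was at 89.0 and 72.1 TPM in wild type and 37.6 and 45.7 TPM in DKO (log2 fold change −0.94 ± 0.22, limma adjusted p = 0.039). *Tcl1*, a coactivator of AKT, was at 56.4 and 55.2 TPM in wild type and 34.8 and 34.01 TPM in DKO (−0.68 ± 0.12, limma adjusted p = 0.016). Of 17 formative and primed members, *Etv5* and *Lef1* fell (11.8%, against 1.07% of all genes) and none rose, with 0 or 1 call without 1 library. *Lef1*, a Wnt effector that is also in the Wnt target list, was at 49.9 and 31.0 TPM in wild type and 15.7 and 23.4 TPM in DKO (−0.9998 ± 0.21, limma adjusted p = 0.031), and it was the only call among 9 Wnt targets. The formative and primed median was −0.40, the lowest of the 26 lists with TPM as deposited, and relative to all genes it was −0.51 with TPM as deposited and −0.50 with spike-in scaling.

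**Figure D3:**
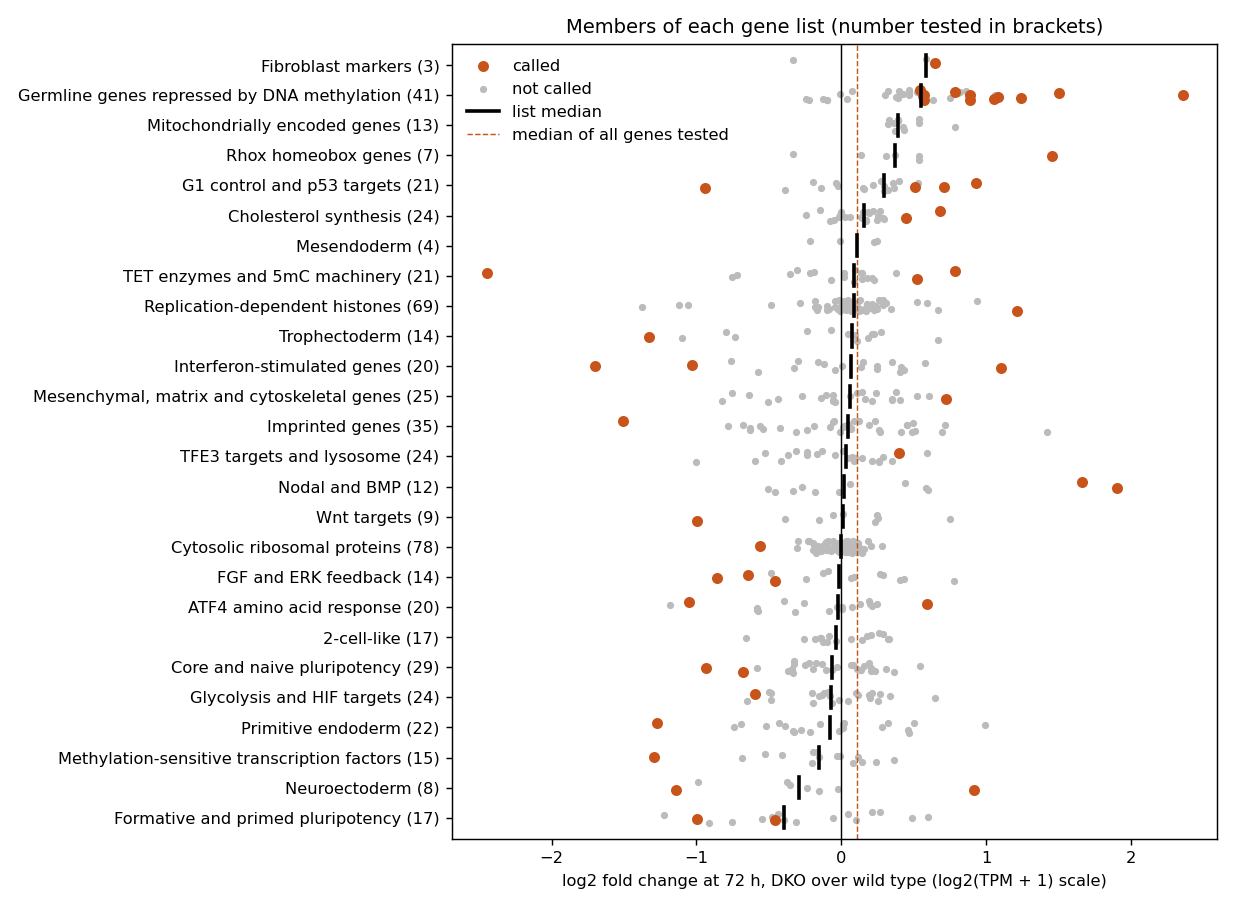
log2 fold change at 72 h of every tested member of the 26 gene lists, ordered by list median (black bar), with called members in orange, others in grey and the dashed line at the median of all genes tested. The germline list has 12 called members to the right, while most other lists have 0 to 3 called members and medians near the dashed line.

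Several other lists had from 1 to 4 calls. Among 21 members of the 5mC machinery list, besides *Tet2*, *Idh1*, which makes the TET cofactor alpha-ketoglutarate, was at 46.2 and 59.1 TPM in wild type and 99.4 and 83.1 TPM in DKO (log2 fold change 0.79 ± 0.17), and *Uhrf2*, a reader of modified cytosine, was at 28.6 and 31.3 TPM in wild type and 44.4 and 42.6 TPM in DKO (0.52 ± 0.12). These are 9.52% called higher and, with *Tet2*, 4.76% called lower, against 4.14% and 1.07% of all genes; neither rise was called with spike-in scaling, after median-centring or without any 1 library. Among 15 transcription factors with methylation-sensitive binding, *Mycn* fell from 85.4 and 78.5 TPM to 33.9 and 31.8 TPM (−1.29 ± 0.28), which is 6.67% of the list against 1.07% of all genes, and it was not called with spike-in scaling, without the filter or without any 1 library. Of 21 G1 and p53 genes, the cell cycle inhibitor gene *Cdkn2a* rose by 0.93, *Sesn1* by 0.70 and *Ccne2* by 0.51, and the cyclin gene *Ccnd2* fell by 0.94. These are 14.3% called higher and 4.76% called lower, against 4.14% and 1.07% of all genes, and the list had no call without any 1 library or with spike-in scaling. *Cdkn2a* was at 4.92 and 5.16 TPM in wild type and 10.96 and 10.01 TPM in DKO. All of these passed in limma with adjusted p between 0.014 and 0.044. Reads of *Ccne2* may be shared with *Ints8*, which overlaps it on the other strand, as *Fdft1* overlaps *Ctsb* and *Sqstm1* overlaps *Mrnip*.

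Of 20 interferon-stimulated genes, *Ifitm1* and *Ifitm3* fell (2 of 20, against 1.07% of all genes), the latter from 57.6 and 51.6 TPM to 22.1 and 30.9 TPM. In the same list *Ifi27* rose from 0.47 and 0.90 TPM to 3.07 and 2.14 TPM (5%, against 4.14% of all genes). *Ifi27* was called under 1 of the 11 alternatives, and neither fall was called with spike-in scaling. Of 20 ATF4 targets, the glutathione-degrading *Chac1* fell from 3.91 and 1.86 TPM to 0.79 and 0.83 TPM and the serine synthesis gene *Psat1* rose by 0.59, 1 of 20 in each direction against 1.07% and 4.14% of all genes. *Psat1* was called under 2 of the 11 alternatives and not without any 1 library, and *Chac1* was called only without wild-type replicate 2 among the fits that left out 1. Of 24 cholesterol synthesis genes *Dhcr7* and *Fdft1* rose by 0.68 and 0.45 (8.33%, against 4.14% of all genes), and neither was called with spike-in scaling, with a replicate block, without the filter or without any 1 library. In this list both DKO libraries were above both wild-type libraries in 14 (58.3%, against 40.3%). Single calls were *Eno1* (−0.59) among 24 glycolysis genes, *Sqstm1* (0.40) among 24 TFE3 targets and lysosomal genes, *Col5a1* (0.72) among 25 mesenchymal and matrix genes, *Hist1h2aa* (1.21) among 69 histones, *Rps27* (−0.56) among 78 ribosomal proteins, *Grb10* among 35 imprinted genes and *Rhox10* among 7 *Rhox* genes. Called higher were 4.17% of TFE3 targets, 4% of mesenchymal genes, 1.45% of histones and 14.3% of *Rhox* genes, against 4.14% of all genes. Called lower were 4.17% of glycolysis genes, 2.86% of imprinted genes and 1.28% of ribosomal proteins, against 1.07% of all genes. Several of these shares are near or below those of all genes. Only *Rhox10* was called without each library in turn; *Eno1* and *Grb10* were called only without wild-type replicate 2, *Hist1h2aa* only without DKO replicate 1 and the rest in none of these fits, and *Sqstm1* was called under 1 of the 11 alternatives. None of the 13 mitochondrially encoded mRNAs passed, while both DKO libraries lay above both wild-type libraries in all 13 (against 40.3% of all genes), with *mt-Co1* at 9294 and 9362 TPM in wild type and 10790 and 12543 TPM in DKO.

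Markers of other lineages showed at most 1 call in each direction per list, against 1.07% of all genes lower and 4.14% higher. None of the calls of these lineage and fibroblast lists was made without any 1 library or with spike-in scaling. *Cldn4* fell among 14 trophectoderm genes, and the apolipoprotein gene *Apoe* fell among 22 primitive endoderm genes, from 253.4 and 200.5 TPM to 67.3 and 127.2 TPM (log2 fold change −1.27 ± 0.31, limma adjusted p = 0.044). Of 8 neuroectoderm genes, the eye and brain factor *Pax6* fell from 3.13 and 3.83 TPM to 1.01 and 1.05 TPM and the neural filament gene *Nes* rose from 3.28 and 2.74 TPM to 6.21 and 6.91 TPM. Neither of the 2 most abundant mesendoderm genes differed past the threshold: *Kdr* was at 6.35 and 4.84 TPM in wild type and 4.75 and 6.39 TPM in DKO, and *Eomes* was at 3.94 and 3.24 TPM in wild type and 3.86 and 4.87 TPM in DKO. The summed TPM of the primitive endoderm list ran from 823 to 870 in wild type and from 634 to 720 in DKO; without *Apoe* it was 569 and 669 in wild type and 567 and 593 in DKO, overlapping. That of the trophectoderm list ran from 127 to 150 in wild type and from 93.6 to 95.5 in DKO, with *Prl3d1* and *Tpbpa* listed at 0. Of 17 2-cell-like genes none passed, and *Zscan4f* was at 52.2 and 45.1 TPM in wild type and 43.1 and 70.1 TPM in DKO, overlapping. Of 3 fibroblast markers tested, *Pdgfrb* rose from 0.97 and 0.98 TPM to 2.32 and 1.90 TPM and was called under 1 of the 11 alternatives; the part of any other cell type in these results was not tested.

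Most genes called at 72 h were not called at the earlier times, while nearly all had the same sign there. At 0 h 129 genes (0.812%) and at 24 h 277 genes (1.74%) were called between DKO and wild type, of which 94 and 126 were also called at 72 h (11.4% and 15.2% of the 828). Of the 658 genes higher at 72 h, 97.7% were also higher at 0 h and 94.7% at 24 h, and of the 170 lower genes 95.9% and 97.1% were also lower, against 70.9% and 68.0% of all genes that kept their sign. Over the genes tested, which do not count as independent replicates, the differences at 72 h correlated with those at 0 h (Pearson's r = 0.58) and at 24 h (r = 0.49). The genes called higher had a median of 0.35 at 0 h and 0.60 at 72 h, the time at which they were chosen. Of the genes called at 72 h, 43 of the higher and 20 of the lower ones were called in the same direction at all 3 times. *Grb10*, *Rhox10*, *Cdkn2a*, *Tet2* and *Lefty2* were among them. *Grb10* was at 48.8 and 41.2 TPM in wild type and 12.2 and 13.4 TPM in DKO at 0 h.

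The test of the difference between times found no gene that differed between genotypes more or less at 72 h than at 0 h or 24 h. In limma, 0 genes (0%) had an adjusted p under 0.05 in each. Of the 15878 genes tested, 577 and 945 had an unadjusted limma p under 0.05. A share of 0.05 of the genes would reach that level without any change. Without the filter on low values 2 genes were called for the change from 0 h and 9 for that from 24 h, and without DKO replicate 1 at 0 h 2 were called for the change from 0 h. None of the differences described here passed this test with the filter and all libraries. *Lefty2* differed by 0.81 at 0 h, 1.67 at 24 h and 1.90 at 72 h, with limma adjusted p = 0.95 for the change from 0 h to 72 h. *Tdrkh* differed by 0.03, 0.38 and 1.24, *Shisa2* by 0.10, −0.07 and −1.37, and *Nes* by −0.12, −0.04 and 0.92, none with a change that passed. *Shisa2* was at 3.28 and 2.15 TPM in wild type and 2.45 and 3.47 TPM in DKO at 0 h, overlapping, and at 9.77 and 7.93 TPM in wild type and 2.31 and 3.33 TPM in DKO at 72 h. *Stra8* was already at 26.3 and 33.3 TPM in wild type and 157.7 and 78.4 TPM in DKO at 0 h.

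**Figure D4:**
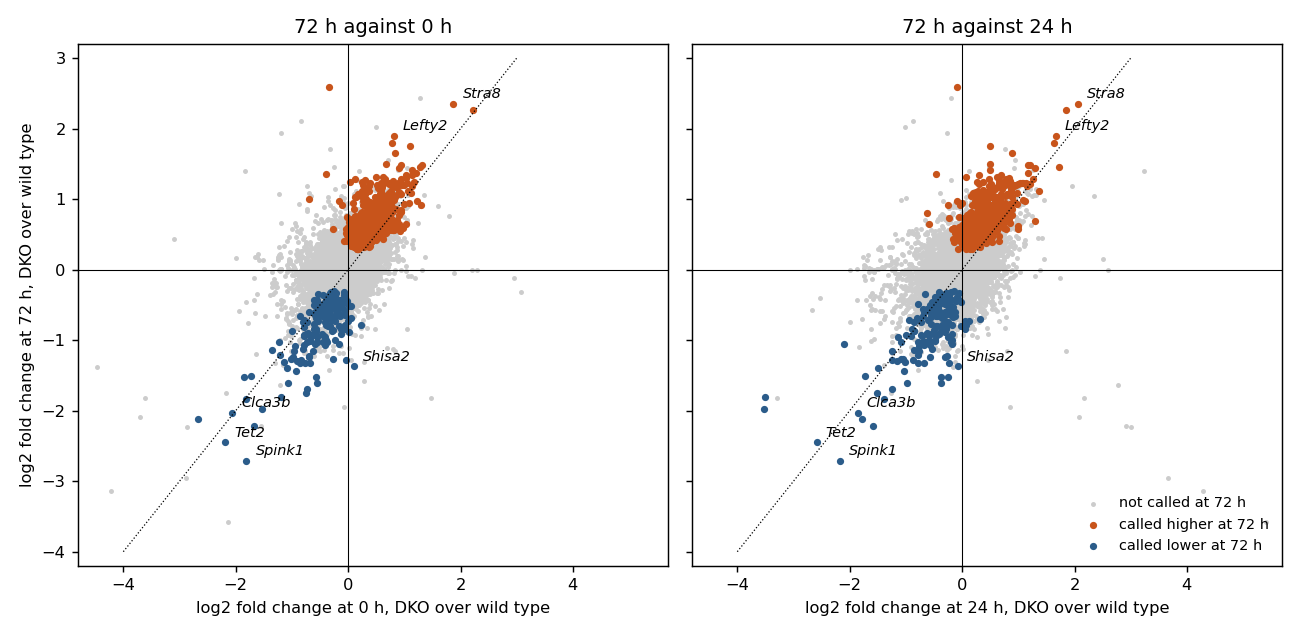
log2 fold change of DKO over wild type at 72 h (vertical axis) against that at 0 h (left) and 24 h (right) for the 15878 genes tested, with genes called higher at 72 h in orange, lower in blue and the others in grey, and the dotted line at equal values. Nearly all called genes lie in the quadrants of equal sign, *Tet2*, *Clca3b* and *Stra8* lie near the line, and *Shisa2* lies near 0 at both earlier times.

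The genes lower in DKO were concentrated on chromosome 3, which carries *Tet2*. It holds 4.78% of the genes tested and 46 of the 170 lower calls (27.1%), against 7 of the 658 higher calls. Of its 759 genes 6.06% were called lower, against 0% to 2.43% on the other chromosomes. Relative to the median of all genes, chromosome 3 stood at −0.23 on the log2 scale at 72 h and at −0.24 at both earlier times. The other nuclear chromosomes ran from −0.19 to 0.07 at 72 h, with chromosomes 17 (−0.19) and 12 (−0.15) lowest. Each pairing of a DKO with a wild-type library at 72 h gave a value below 0 for chromosome 3, from −0.26 to −0.20. This was not particular to chromosome 3. All pairings were also below 0 for chromosomes 17 (−0.22 to −0.16), 12 (−0.20 to −0.13), 7, 10 and 16. Chromosome 12 stood at −0.16 at 0 h and −0.17 at 24 h, and chromosome 17 at −0.11 and −0.13. Away from chromosome 3, 124 genes were called lower (0.820% of 15119).

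The shift did not cover the whole of chromosome 3. In stretches chosen after the values along it were seen, the 585 genes from its start to 110 Mb had a median of −0.24, the 85 genes from there to *Tet2* a median of 0.04, and the 88 genes beyond *Tet2* a median of −0.30, all minus the median of all genes. At 0 h the values were −0.26, 0.00 and −0.25. The 20 genes tested next to *Tet2* at lower coordinates had a median of 0.07 and the 20 at higher coordinates one of −0.33, whereas the 20 genes on either side of *Tet1* on chromosome 10 had medians of 0.10 and 0.22. *Clca3b*, *Spry1* and *Rps27* lie in the shifted stretches, as do *Tdrkh* and *Nes*, which were higher in DKO, and *Lef1* lies in the stretch without a shift. Why these stretches differ was not tested, and a property of the DKO line cannot be told apart from an effect of the deletions.

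**Figure D5:**
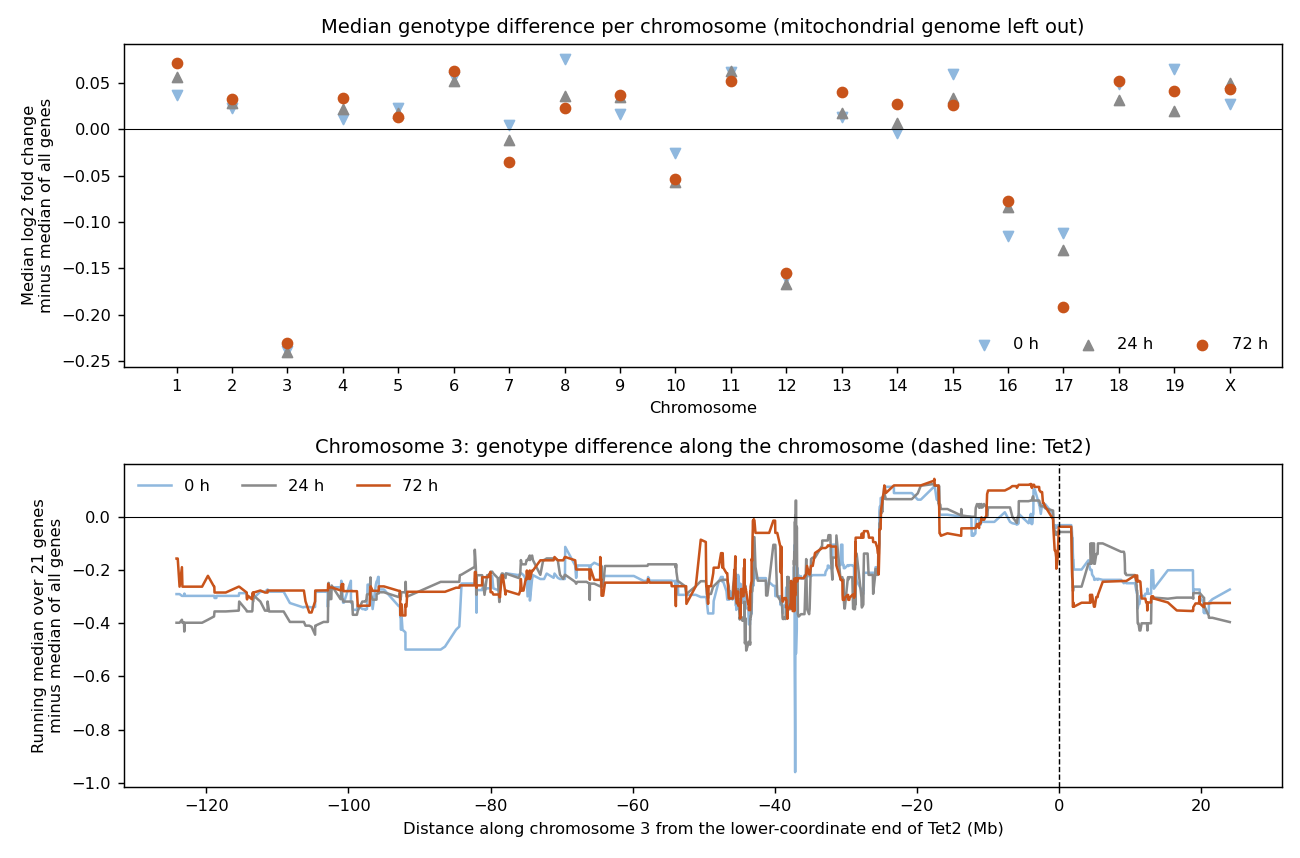
Top, median log2 fold change of DKO over wild type minus the median of all genes for each nuclear chromosome at 0 h, 24 h and 72 h; bottom, the running median over 21 neighbouring genes along chromosome 3 against the distance in Mb from the lower-coordinate end of *Tet2* (dashed line). Chromosome 3 lies lowest at all 3 times, and its running median is near 0 in the stretch that ends at *Tet2* and below 0 on most of the rest.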

How the data were processed

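RNA-seq of E14 mouse ES cells comprised 14 libraries, grouped by the labels' genotype and hours of mTORi into 7 groups of 2. The authors trimmed reads with cutadapt 2.4, aligned them with STAR 2.7.3a to mm10 and quantified them with StringTie 2.0 (versions from the submitters' processing notes, which differ from the study's methods for STAR and StringTie) on GENCODE VM19. The deposited values are TPM per gene made by the authors, without ERCC entries; their own test, DESeq2 on StringTie output, does not apply to TPM. The study calls its replicates biological; p-values measure the spread between these libraries. TPM were summed per gene identifier, genes averaging 1 TPM or more over all libraries were kept, and log2(TPM + 1), which understates changes of low genes, was fitted for all groups together in limma 3.58.1 (R 4.3.3; mean-variance trend, no block) with Benjamini-Hochberg adjustment over all genes. The fit was tested on simulated data.

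Alternatives were spike-in scaling (1 factor per library, the median ratio of the study's spike-in normalized table to the deposited TPM), median-centring, a pseudocount of 0.1 TPM, no filter, a replicate block, only the 4 libraries at 72 h, and leaving out each replicate. The members and lists were chosen with earlier results of these data known. Named genes are the *Tet* genes, the 12 largest called rises and falls (at least 200 bp, genotypes not overlapping, no provisional or pseudogene symbol), up to 5 called members of each list and, for lists without calls, the 2 most abundant members. Gene types came from GENCODE M21 and promoters from RefSeq GRCm38.p6. Some genes that these rules select are not reported here.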

Additional observations from a re-analysis of the deposited data

How the results depend on the processing

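At 72 h the calls were 77 higher and 6 lower with spike-in scaling, 213 higher after median-centring, 420 and 106 without the filter on low values, and 2 and 3 when only the 4 libraries at 72 h were fitted. Leaving out 1 library at 72 h gave 29 to 66 higher and 9 to 25 lower calls; the lone library of a group is then assumed to vary like the other groups. Calls at 0 h numbered 7 with spike-in scaling and 1 to 14 without 1 library, and those at 24 h 11 with spike-in scaling, 181 without the filter and 43 to 67 without 1 library. For the change of the genotype difference from 0 h to 72 h, 2 genes were called without the filter and 0 to 2 without 1 library, and from 24 h to 72 h, 9 without the filter. Of the 55 called genes named by the rule, 41 stayed called after median-centring, 49 with a pseudocount of 0.1 TPM, 25 without the filter, 17 with spike-in scaling, 5 with the 4 libraries at 72 h alone, 38 with a replicate block and 9 to 15 without 1 library; *Tet1* passed after median-centring (limma adjusted p = 0.049). The cause of these changes was not tested, except that fits with fewer libraries have fewer residual degrees of freedom.

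The replicate numbers do not pair the genotypes: across genes, the replicate differences of wild type and DKO correlated at −0.48 at 0 h, −0.55 at 24 h and −0.42 at 72 h, while the pairs of these times within wild type correlated at 0.29 to 0.46 and within DKO at 0.25 to 0.41; the study processed the time points of a replicate in parallel. With a replicate block, 338 genes were higher and 101 lower at 72 h, and 45 and 160 genes were called at 0 h and 24 h. With the DKO numbers crossed in the block, an alternative added after seeing the data, the calls were 1515 higher and 384 lower at 72 h, 481 at 0 h and 746 at 24 h. TPM keep no depth, so what sequencing depth limits could not be given.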
